A study of Homo sapiens with 16 samples.

Results

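EZH2 was overexpressed from a cDNA in HCC70, an established human breast cancer line of the basal-like type, and gene expression was compared with that of the same line carrying an empty vector. The comparison rests on 4 of the 16 arrays of the study, chosen by their sample labels: 2 arrays of cells stably infected with the EZH2 cDNA vector (fip EZH2) and 2 of cells stably infected with the plKO Puro vector. A further 4 HCC70 control arrays, in pairs called scrambled sets a and b, carried scrambled shRNA and served to show how far controls differed from each other. In 4 more arrays of the line, EZH2 or the PRC2 subunit EED was knocked down by shRNA, and the last 4 arrays were of another line, MDA-MB-468. All cells were exposed to virus in 6 µg/ml polybrene, placed under 1 µg/ml puromycin 48 h later, and seeded at the same density 24 h before total RNA was taken. Each array was made from 200 ng of RNA. The labels do not say whether the plKO Puro and fip vectors share a backbone, nor whether duplicates came from separate cultures or infections, so p-values measure the spread between these arrays, which may be technical.

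Polycomb repressive complex 2 (PRC2) keeps genes silent by adding methyl groups to histone H3, and EZH2 is its enzyme. EED and SUZ12 are the other core subunits, EZH1 is a related methyltransferase that can take the place of EZH2, and PRC1 is the partner complex that reads and reinforces the mark. Basal-like breast cancers carry both luminal and basal keratins, and the study's title concerns the part of EZH2 in such a double identity.

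The deposited values are log2 signals of transcript clusters, probe groups that each stand for about a gene. A difference of 1 is 2-fold. Of 33297 clusters, 16175 reached log2 6 on at least 2 of the 16 arrays and were tested with limma, and a change was called at a Benjamini-Hochberg adjusted p under 0.05. All errors given for changes are standard errors of that fit. Array medians ran from 5.37 to 5.53. Duplicates correlated at r = 0.994 for the empty vector and 0.997 for the EZH2 cDNA, with median differences between duplicates of 0.14 and 0.088. The 3 HCC70 control groups differed widely: the empty vector was called against scrambled set a in 4022 clusters and against scrambled set b in 307, and set a against set b in 3677. Each change is therefore also set beside the range of all 6 control arrays. The cells kept their epithelial signals, with EPCAM, an epithelial adhesion protein, at 10.86 and 11.06 with the empty vector and at 10.70 and 10.96 with the EZH2 cDNA. Of 22 fibroblast, endothelial and immune markers with a cluster, 3 were bright enough to be tested and none was called. The median of these markers was between 4.23 and 4.28 on the EZH2 cDNA arrays and between 4.21 and 4.33 on the empty vector arrays, while their summed linear signal ran from 1063 to 1113 and from 947 to 1066.

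EZH2 itself read 9.94 and 9.94 on the empty vector arrays and 10.20 and 10.27 on the EZH2 cDNA arrays. Both EZH2 cDNA arrays lay above all 6 controls, which spanned 9.94 to 10.08. The rise was 0.29 ± 0.07, or 1.23-fold, with an adjusted p of 0.0961 by limma, and so was not called. Against scrambled set a it was 0.23 (adjusted p = 0.0343) and against scrambled set b 0.16 (adjusted p = 0.444). For scale, the EZH2 shRNA arrays read 8.50 and 8.58. Whether the probes of this cluster lie within the sequence carried by the cDNA is not stated in the labels, and EZH2 protein was not analysed here. The other members of the complex moved little: EED by -0.03 ± 0.11, SUZ12 by 0.02 ± 0.10 and EZH1, which was below the floor of log2 6 in both groups, by -0.07 ± 0.08. None of the 12 tested PRC2 subunits was called, and their median change was 0.004. Among 15 PRC1 subunits 1 was called higher, CBX6, a chromobox protein that binds the methyl mark, at 8.49 and 8.58 with the empty vector and 9.13 and 8.99 with the EZH2 cDNA. The change of CBX6 was 0.52 ± 0.08 (adjusted p = 0.00949), and it lay above the controls. CBX6 was called in 1 of the 4 fits that left out 1 array, that without the second empty vector array, and not against set b (0.29, adjusted p = 0.167).

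**Figure D1:**
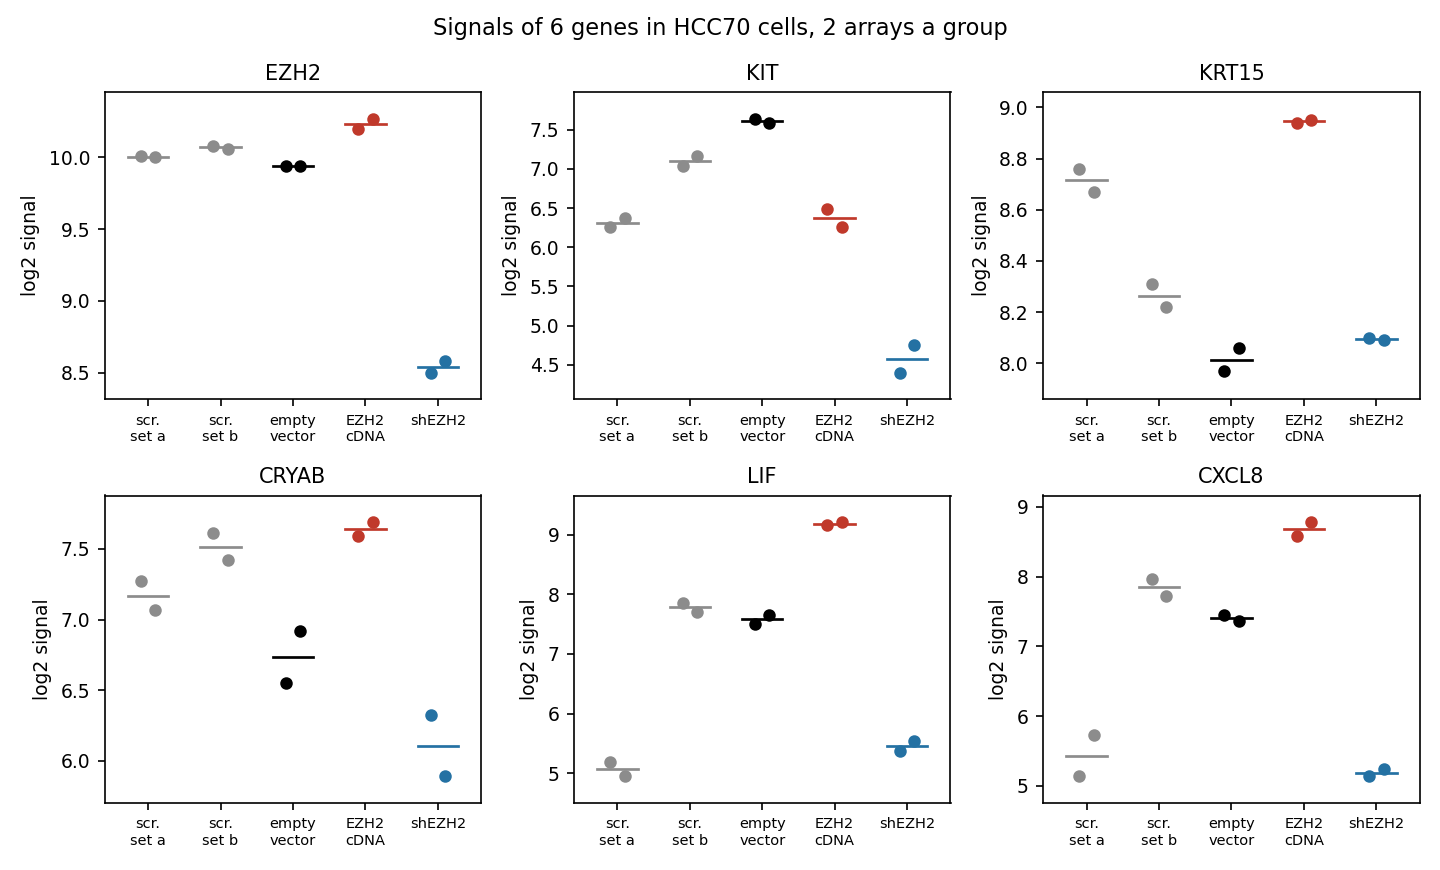
Log2 signal on each HCC70 array (points) with the group mean (bar) for EZH2, KIT, KRT15, CRYAB, LIF and CXCL8 in scrambled sets a and b (scr.), empty vector, EZH2 cDNA and EZH2 shRNA cells. KIT on the EZH2 cDNA arrays, at 6.49 and 6.26, overlaps scrambled set a, while KRT15, LIF and CXCL8 exceed every control array. Each panel has its own vertical scale, which does not start at 0.

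In all, 158 clusters were called, 0.977% of those tested, and 147 of them were higher with the EZH2 cDNA and 11 lower. Of the 158, 2 held the same values on every array as another called cluster, and each is counted. By the size of the change, 15 rose and 1 fell at least 2-fold. Over all tested clusters the median change was 0.022, and at an unadjusted p under 0.05 there were 1264 higher and 411 lower. Counted as genes, each by 1 cluster with exactly 1 symbol, 129 of 11145 were higher (1.16%) and 9 lower (0.0808%). Both EZH2 cDNA arrays lay outside the 6 controls, in the direction of the change, in 92 called clusters (0.569% of those tested), 89 of them higher and 3 lower. The same held for 11.1% of all tested clusters, 1126 above and 663 below, whether called or not. Of the called changes, 57 exceeded 2 SD of the 6 control arrays and 31 were under 1 SD. In 25 called clusters the mean of at least 1 of the groups compared was below the floor, and in 7 of these both means were. Leaving out 1 of the 4 arrays left between 14 and 97 calls: 51 without the first empty vector array and 97 without the second, 39 without the first EZH2 cDNA array and 14 without the second. A fit to the 4 arrays alone called 0 clusters, with 1405 at an unadjusted p under 0.05. Of 49 called genes named by rule, 10 stayed called without each of the 4 arrays in turn: LIF, KLK10, KLK6, KRT15, EDN1, IGFBP5, CD180, SAA2, SPRR2A and KIT.

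**Figure D2:**
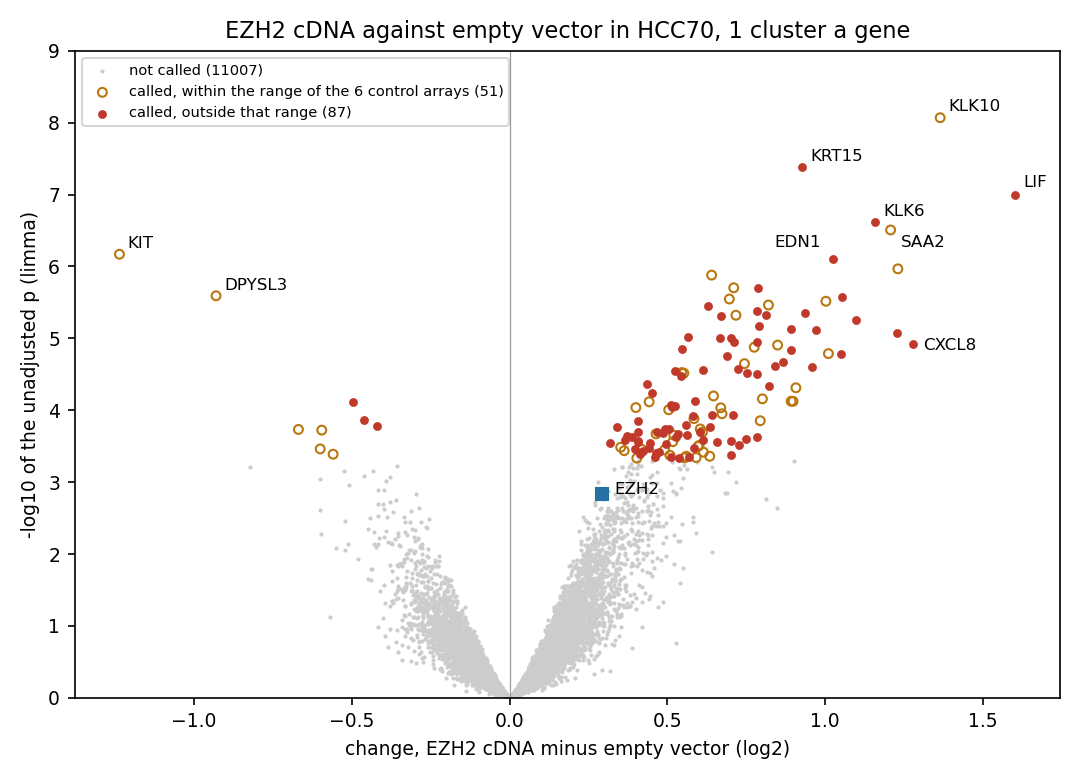
Change in log2 signal (horizontal) against -log10 of the unadjusted limma p (vertical) for 11145 genes. Open circles are called genes within the range of the 6 control arrays, filled red circles called genes outside it, and the blue square EZH2. Of 138 called genes 129 lie to the right of 0, with LIF and KLK10 farthest out and KIT and DPYSL3 farthest to the left.

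Inflammatory cytokines and NF-kB targets were the list with the most rises: 9 of 27 tested members were called higher and none lower, and 6 of the 9 lay above all 6 controls. The median change over the 27 was 0.27, against 0.026 over all tested genes, of which 1.16% were called higher. Lists and members were chosen with earlier results of these data known, so the counts and the order of the lists are descriptions. NF-kB is a transcription factor of the immune and stress response that switches on many cytokine genes. The promoters of called members are shown as a description. These genes were picked for their calls from a list of NF-kB targets, so their common direction and their motifs follow in part from that choice. Of the 9, 5 matched the RefSeq promoter table (GRCh38.p14). The 150 bases before the start of each are given 5′ to 3′ on the gene's strand, with matches to the 10-letter NF-kB motif or to the AP-1 motif TGANTCA in capitals. CXCL1 lies at chr4:73869243-73869392 on the plus strand, CXCL8 at chr4:73740419-73740568 (plus), IL6 at chr7:22727050-22727199 (plus), TNFAIP3 at chr6:137867109-137867258 (plus) and PTGS2 at chr1:186680424-186680573 (minus).
CXCL1: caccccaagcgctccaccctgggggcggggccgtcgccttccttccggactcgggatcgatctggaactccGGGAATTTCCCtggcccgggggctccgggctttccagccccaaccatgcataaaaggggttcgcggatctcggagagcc
CXCL8: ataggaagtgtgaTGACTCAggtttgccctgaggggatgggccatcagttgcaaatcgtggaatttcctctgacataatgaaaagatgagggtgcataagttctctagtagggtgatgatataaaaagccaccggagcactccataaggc
IL6: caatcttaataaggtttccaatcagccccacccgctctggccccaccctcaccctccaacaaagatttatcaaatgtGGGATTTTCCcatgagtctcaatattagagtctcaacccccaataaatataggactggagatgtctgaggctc
TNFAIP3: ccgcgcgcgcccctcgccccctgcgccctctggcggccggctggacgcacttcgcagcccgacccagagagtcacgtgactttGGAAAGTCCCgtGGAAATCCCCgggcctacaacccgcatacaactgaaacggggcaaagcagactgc
PTGS2: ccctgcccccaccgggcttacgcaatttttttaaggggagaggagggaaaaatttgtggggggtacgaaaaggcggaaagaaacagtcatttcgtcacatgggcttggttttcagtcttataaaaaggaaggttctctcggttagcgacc
The capitals in CXCL1 are 2 overlapping NF-kB matches, in IL6 there is 1, in TNFAIP3 there are 2, and in CXCL8 the capitals are an AP-1 match. PTGS2 holds neither in these letters. Searched on both strands in the 250 bases before the start, the NF-kB motif was found in 20 of the 100 genes called higher that had a promoter in the table (20.0%), in 11.7% of tested genes and in 9.6% of all promoters. The AP-1 motif was in 12%, 3.8% and 6.6%. The motif of SRF, another transcription factor, was searched for as well and was in 1.0%, 1.0% and 1.1%. These shares are descriptions chosen after the values were seen, with no test.

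LIF, a cytokine of the interleukin 6 family, read 7.51 and 7.66 with the empty vector and 9.16 and 9.21 with the EZH2 cDNA, a rise of 1.60 ± 0.14, or 3.03-fold (adjusted p = 0.000555). Both EZH2 cDNA arrays were above all controls, but the controls themselves ran from 4.95 to 7.85, with scrambled set a at the bottom. CXCL8, the chemokine also called interleukin 8, read 7.45 and 7.36 with the empty vector and 8.58 and 8.78 with the EZH2 cDNA. It rose by 1.28 ± 0.18 (adjusted p = 0.00565), above controls that spanned 5.14 to 7.97. PTGS2, the cyclooxygenase that makes prostaglandins in inflammation, went from 8.03 and 8.20 to 9.08 and 9.25. Its change of 1.05 ± 0.12 (adjusted p = 0.00306) also lay above the controls.

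CXCL1, a neutrophil chemokine and neighbour of CXCL8 on chromosome 4, read 9.36 and 9.39 and then 10.29 and 10.40. TNFAIP3, which shuts NF-kB signalling off, read 6.74 and 6.95 and then 7.73 and 7.69. IL6, the cytokine that gives its family the name, read 6.51 and 6.76 and then 7.37 and 7.48. All of these were above the 6 controls, by changes of 0.97 ± 0.13, 0.86 ± 0.13 and 0.79 ± 0.12. The acute-phase proteins SAA2 (1.21 ± 0.12) and SAA1 (0.79 ± 0.14) and the monocyte chemokine CCL2 (1.01 ± 0.14) were called as well, but within the range of the controls. SAA2 on the EZH2 cDNA arrays, at 7.52 and 7.48, was below scrambled set b, at 8.42 and 8.36. CCL2, at 9.43 and 9.55, was likewise below set b, at 9.85 and 9.84. Called members beyond LIF, CXCL8, SAA2 and PTGS2 that the naming rule does not cover were named after their values were seen, here and in the groups that follow.

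Members of the list that were not called included ICAM1, a leukocyte adhesion protein, at 0.69 (adjusted p = 0.0949), S100A8 at 0.54 and NFKBIA, the inhibitor of NF-kB, at 0.36. CSF3 changed by 0.01 and S100A7 by -0.34. The number of called members moved with the arrays: it was 5 without the first empty vector array and 9 without the second, 5 without the first EZH2 cDNA array and 2 without the second. Against scrambled set b 4 members were called higher and 1 lower. Of the 37 tested interferon response genes none was called against the empty vector, and their median change was 0.05. Against scrambled set a, where 4227 clusters were called in all, 26 of the 37 were called higher. Against set b it was 0, and against the mean of the 3 control groups 11.

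Cornified envelope and kallikrein genes had the highest median change of the lists, 0.34. Of 19 tested members 7 were called higher, against 1.16% of all tested genes, and none lower. Of the 7, 3 were above all controls. Kallikreins are secreted serine proteases, several of which act in the shedding of skin cells, and their genes lie side by side on chromosome 19. Of the 15 kallikrein genes there, 6 were bright enough to test and 4 of these were called. KLK5 read 10.45 and 10.39 with the empty vector and 11.18 and 11.08 with the EZH2 cDNA. KLK6 read 6.13 and 6.15 and then 7.45 and 7.15, and KLK7 read 7.57 and 7.29 and then 8.64 and 8.68. The EZH2 cDNA arrays of these 3 genes were above every control, with changes of 0.71 ± 0.10, 1.16 ± 0.11 and 1.23 ± 0.16.

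KLK10 had the lowest p of any cluster, with 7.51 and 7.38 against 8.79 and 8.83, a rise of 1.36 ± 0.09 (adjusted p = 0.000138). Scrambled set a was higher still, at 9.05 and 9.02, so against that set the difference was -0.23. Between them along the chromosome, KLK8 at 0.45 ± 0.15 (adjusted p = 0.246) and KLK9 at -0.25 ± 0.14 (adjusted p = 0.629) were not called. Whether related kallikrein genes share probes was not tested.

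**Figure D3:**
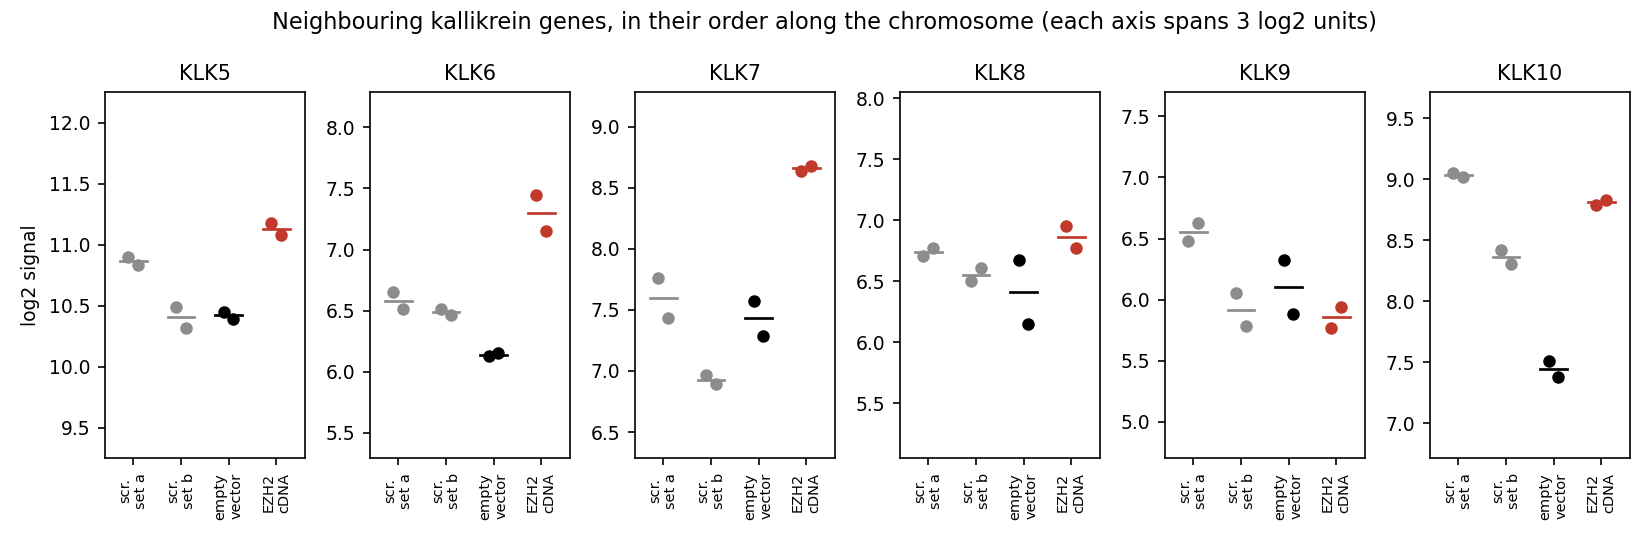
Log2 signal of the 6 tested kallikrein genes in their order on chromosome 19, for scrambled sets a and b (scr.), empty vector and EZH2 cDNA; points are arrays, bars group means, and every axis spans 3 log2 units. KLK5, KLK6 and KLK7 are highest on the EZH2 cDNA arrays, KLK10 is highest in scrambled set a, and KLK8 and KLK9 overlap the controls.

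SPRR2A, a small proline-rich protein of the cornified envelope, read 5.01 and 5.21 with the empty vector and 6.18 and 6.50 with the EZH2 cDNA, a rise of 1.23 ± 0.13 (adjusted p = 0.00194). The controls spread further than that, from 4.23 in set b to 7.29 in set a. PI3, the elastase inhibitor elafin, and KRT16, a keratin of stressed epidermis, were called at 0.71 ± 0.08 and 0.55 ± 0.08, also within the control range. Involucrin (IVL) changed by 0.22 and SPRR1B by 0.23, neither called. Called members of the list numbered 7 without either empty vector array, 5 without the first EZH2 cDNA array and 4 without the second. Against scrambled set a 5 were called higher and 4 lower, and against set b 5 higher and 1 lower.

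Growth factor ligands and genes of MAP kinase feedback gave 6 called rises among 29 tested members and no fall, and all 6 lay above the controls. The median change of the 29 was 0.19. Over all tested genes 1.16% were called higher. HBEGF, a ligand of the EGF receptor, read 8.09 and 8.19 with the empty vector and 8.83 and 9.13 with the EZH2 cDNA, a change of 0.84 ± 0.12 (adjusted p = 0.00886). DUSP6, a phosphatase that dampens ERK, read 6.63 and 6.53 and then 7.26 and 7.31, a change of 0.70 ± 0.14 (adjusted p = 0.0464). The receptor MET (0.39 ± 0.07), PHLDA1 (0.40 ± 0.08), the phosphatase DUSP5 (0.37 ± 0.07) and the ligand TGFA (0.37 ± 0.07) were the others. The receptor EGFR changed by 0.16 ± 0.12 (adjusted p = 0.71). Without the second empty vector array or the first EZH2 cDNA array 1 of the 29 was called, without either of the others 0, and against set b 2.

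Several of the largest rises belonged to none of these groups. EDN1, the vasoconstrictor endothelin 1, read 8.32 and 8.47 with the empty vector and 9.43 and 9.41 with the EZH2 cDNA, a change of 1.02 ± 0.11 (adjusted p = 0.00161). FST, follistatin, which binds activin, read 5.46 and 5.89 and then 6.69 and 6.85, a change of 1.1 ± 0.14 (adjusted p = 0.00369). DUSP1, an immediate-early phosphatase of MAP kinases, went from 7.88 and 7.89 to 8.85 and 9.02, a change of 1.05 ± 0.15 (adjusted p = 0.00664). All were above the 6 controls. Measured against the SD of the control arrays, the largest called changes were those of DHRS9, a retinol dehydrogenase (0.67, 8.53 SD), PDE8B, a cyclic AMP phosphodiesterase (0.47, 6.29 SD), MAP3K13, a kinase (0.78, 6.21 SD), KLK6 (5.46 SD) and PLXNA2, a semaphorin receptor (0.41, 5.13 SD). The control SD itself was small for DHRS9 (0.078), PDE8B (0.074) and PLXNA2 (0.079). The empty vector mean of PDE8B, 5.89, was below the floor. With the replicate number as a block in limma, KLK6 stayed called (adjusted p = 0.0113). DHRS9 (0.0641), PDE8B (0.132), MAP3K13 (0.193) and PLXNA2 (0.162) did not.

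Among matrix proteases, their inhibitors and IGF-binding proteins, 4 of 21 were called higher, against 1.16% of all tested genes. Of the 4, 2 were above all controls. IGFBP5, which binds insulin-like growth factors, read 7.22 and 7.41 with the empty vector and 8.20 and 8.0 with the EZH2 cDNA (0.78 ± 0.10, adjusted p = 0.00346). PLAUR, the urokinase receptor, went from 9.92 and 9.92 to 10.56 and 10.72 (0.72 ± 0.11, adjusted p = 0.00935). The plasminogen activator PLAT (0.78 ± 0.11) and the protease inhibitor TIMP3 (0.56 ± 0.12, adjusted p = 0.0468) were called within the control range. Called members numbered 2 without the first empty vector array, 3 without the second, 2 without the first EZH2 cDNA array and 1 without the second.

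Lineage markers moved in both directions. KIT, a receptor tyrosine kinase that marks luminal progenitor cells of the breast, had the largest fall, from 7.64 and 7.58 with the empty vector to 6.49 and 6.26 with the EZH2 cDNA. The change was -1.24 ± 0.13 (adjusted p = 0.00156), or 2.35-fold lower. It lay within the range of the controls, because scrambled set a read 6.26 and 6.37. Against set a the difference was 0.06 (adjusted p = 0.772) and against set b -0.72 (adjusted p = 0.0208). KRT15, a keratin counted here with the luminal progenitor markers, went the other way, from 7.97 and 8.06 to 8.94 and 8.95. Its rise of 0.93 ± 0.07 (adjusted p = 0.000333) lay above controls that reached 8.76. The other 11 of 13 tested luminal progenitor markers were not called, ALDH1A3, an aldehyde dehydrogenase, at 0.17 ± 0.07 among them. Of the 13, 10 had changes above 0, and the median change was 0.174, so the fall of KIT was not shared by most of the list.

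Of 15 tested basal and myoepithelial markers 3 were called higher and none lower, with a median change of 0.245. Over all tested genes 1.16% were called higher. TAGLN, an actin-binding protein of contractile cells, read 7.03 and 7.03 with the empty vector and 7.93 and 8.04 with the EZH2 cDNA, a change of 0.96 ± 0.14 (adjusted p = 0.00905). CRYAB, a small heat shock protein, went from 6.55 and 6.92 to 7.59 and 7.69, a change of 0.91 ± 0.14 (adjusted p = 0.0131). KRT14, the keratin of basal cells, went from 9.24 and 9.26 to 9.73 and 9.79, a change of 0.50 ± 0.09 (adjusted p = 0.0212). Only TAGLN of these 3 was above all controls, and KRT14 differed from scrambled set a by -0.415 (adjusted p = 0.00511). Of the 15 markers 2 were called without the second empty vector array, 0 without any of the others, and 0 against set b.

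KRT5, the partner keratin of KRT14, changed by 0.10 ± 0.08, and the luminal keratins KRT8 and KRT18 by 0.17 ± 0.09 and 0.08 ± 0.10. GATA3, a transcription factor of luminal cells, changed by 0.09 ± 0.14. None of these was called, nor was any of the 13 mature luminal markers, 12 mesenchymal markers or 20 junction genes tested. Bulk RNA does not tell a change in the number of cells of a kind from a change in RNA per cell.

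Falls were few. DPYSL3, a cytoskeletal protein known from neurons, read 7.35 and 7.33 with the empty vector and 6.46 and 6.36 with the EZH2 cDNA, a change of -0.93 ± 0.11 (adjusted p = 0.00306). SERPINA5, a protease inhibitor, read 8.81 and 8.88 and then 8.36 and 7.99, a change of -0.67 ± 0.12 (adjusted p = 0.0312). HEY2, a transcriptional repressor downstream of Notch, read 7.87 and 7.83 and then 7.39 and 7.13, a change of -0.595 ± 0.11 (adjusted p = 0.0316). For each of these the range of the controls covered both EZH2 cDNA arrays, and scrambled set a was lower still for DPYSL3 and SERPINA5. The 3 falls below all controls were those of SCIN, an actin-severing protein (-0.46 ± 0.08, adjusted p = 0.0255), MTRES1, a mitochondrial protein (-0.50 ± 0.08, adjusted p = 0.0179), and TMEM168 (-0.42 ± 0.08, adjusted p = 0.0298). SCIN read 8.45 and 8.50 with the empty vector and 7.99 and 8.04 with the EZH2 cDNA. WDR54 (-0.56 ± 0.12) and MUCL1 (-0.60 ± 0.12), the latter below the floor in both groups, were the remaining genes called lower, counted by 1 cluster each. CFB, complement factor B, has 3 clusters with its symbol. The 1 called lower (-0.447 ± 0.091, adjusted p = 0.0453), within the control range, is not the cluster that stands for the gene. Against the scrambled sets HEY2 differed by 0.094 (set a, adjusted p = 0.57) and 0.037 (set b, adjusted p = 0.958), so its fall was seen against the empty vector alone. HEY2, SCIN, MTRES1, TMEM168 and WDR54 were called in 0 of the 4 fits that left out 1 array, whichever it was, and DPYSL3 in 3.

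Genes known as Polycomb targets from work on cancer cells gave 1 called change among 16 tested members, the rise of TIMP3, and a median change of 0.026, the same as over all genes. CDKN2A, a cell cycle inhibitor silenced by Polycomb in many cells, stood at 10.57 and 10.55 with the empty vector and 10.61 and 10.57 with the EZH2 cDNA. None of 12 tested HOX genes, the classical Polycomb targets, was called. The other lists gave at most 1 call each. ADM of the hypoxia list, GADD45A of the p53 list, ATF3 of the unfolded protein list and TAP2 of antigen presentation rose, by 0.47 ± 0.10, 0.53 ± 0.10, 0.64 ± 0.11 and 0.42 ± 0.08. With any 1 of the 4 arrays left out, ADM, GADD45A, TAP2 and TIMP3 were no longer called. The change of ATF3 ran from 0.484 to 0.799 in those fits, and its empty vector mean of 5.43 was below the floor. Against set b ATF3 was not called (0.475, adjusted p = 0.0932 by limma). No member was called among 27 G1/S genes, 28 G2/M genes, 25 cholesterol synthesis genes, 20 aldo-keto reductases and NRF2 targets, 14 demethylases and DNA methylation enzymes or 9 members of the metallothionein list. The metallothionein list, which includes the zinc transporter SLC30A1, had changes from -0.46 to -0.03. The G2/M genes had a median change of -0.09, and AURKA, a mitotic kinase, stood at -0.53 ± 0.12 (adjusted p = 0.0612).

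**Figure D4:**
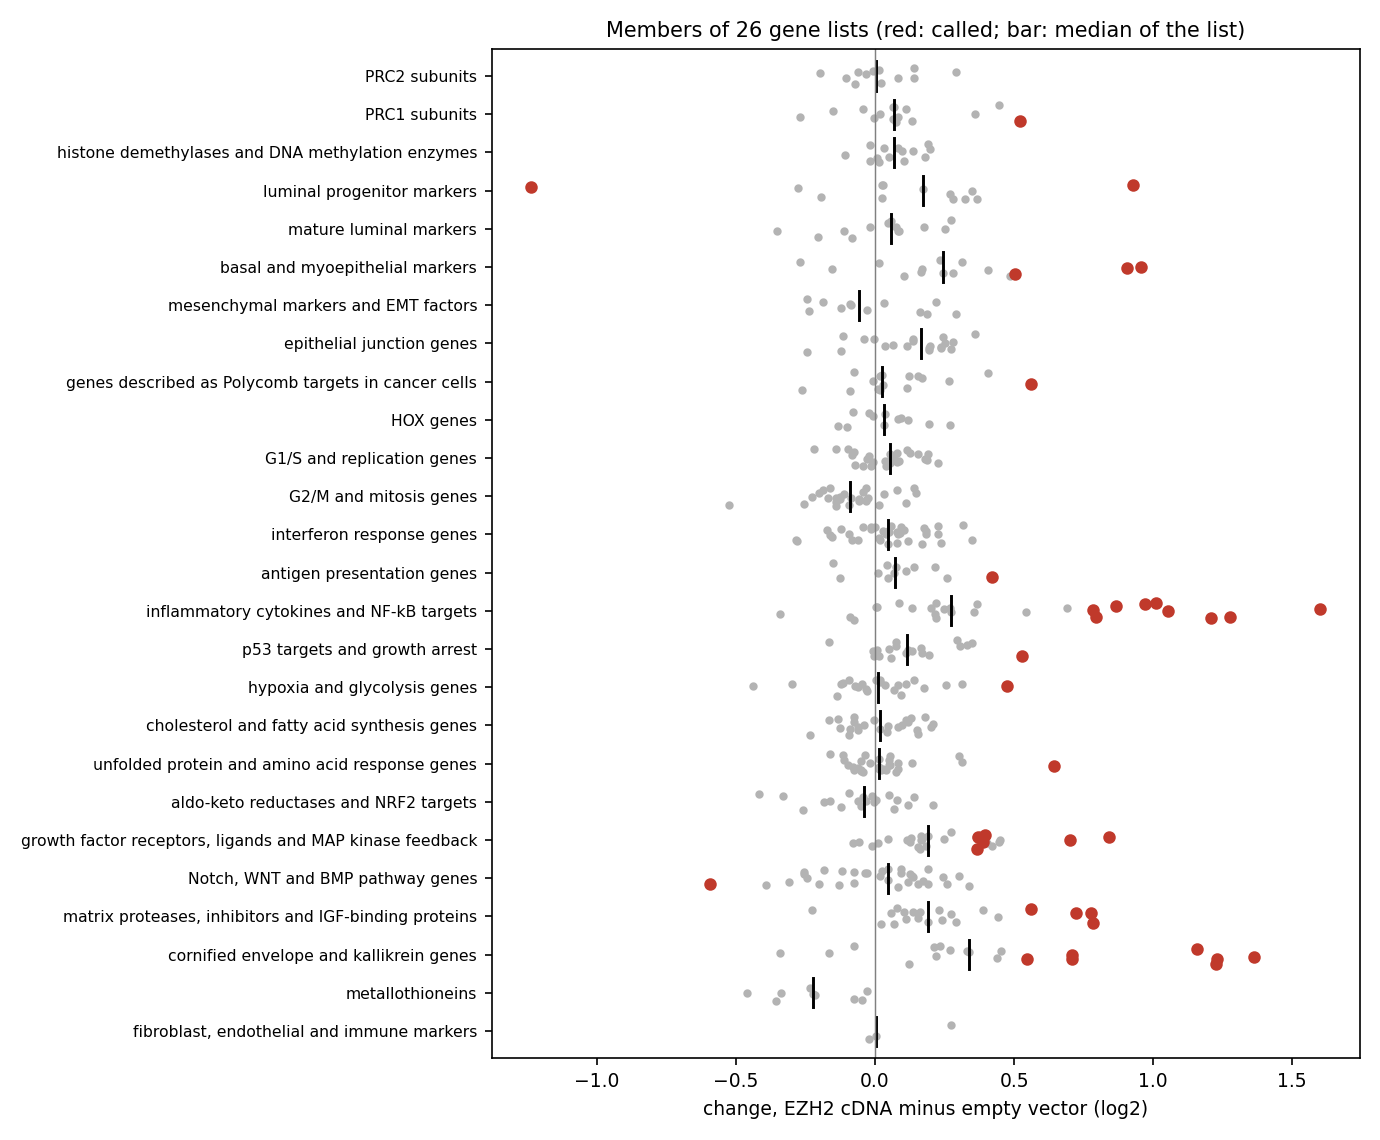
Change in log2 signal for each tested member of 26 gene lists; grey points were not called, red points were called, and the black bar is the median of the list. Called members gather in the inflammatory, cornified envelope and kallikrein, growth factor, and matrix protease lists, all to the right of 0, while KIT and HEY2 are the called members to the left.

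By its labels, the same line with EZH2 knocked down gives the opposite manipulation, in arrays that share none with this comparison. The 2 were unlike in size: EZH2 RNA changed by -1.47 and -1.53 with the shRNA against sets a and b. With the cDNA it changed by 0.29, which was not called. The knockdown was called in 11.4% of clusters against scrambled set a and in 26.7% against set b, and which set was made for it is not stated outright. Over all tested clusters its calls against set a were 1181 higher and 656 lower. Against set b they were 1834 higher and 2491 lower, so falls were the more frequent with that set alone. Of the 158 clusters called for the EZH2 cDNA, 45 moved the opposite way in the knockdown against set a (28.5% of them, and 2.45% of the knockdown's calls) and 33 the same way (20.9% and 1.80%). Against set b, 85 moved the opposite way (53.8% and 1.97%) and 27 the same way (17.1% and 0.624%). Over all tested clusters the changes correlated at r = -0.052 and -0.196, as a description across clusters, which are not independent. Over the 158 called clusters alone r was 0.131 and 0.054. Called against each set on its own, 32 clusters, 26 of them named, rose with the cDNA and fell with the knockdown, and 0 did the reverse. Another 10 rose in both and 3 fell in both. With the cDNA 147 clusters were called higher and only 11 lower, so far fewer could do the reverse. The share of all tested clusters called in the knockdown against both sets is not given here. The 32 include 2 unnamed clusters that repeat the values of another on every array, so they add no measurement of their own.

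SLC6A14, an amino acid transporter, was among those that moved in opposite ways: it read 9.23 and 9.27 with the empty vector, 10.10 and 10.19 with the EZH2 cDNA, and 7.46 and 7.01 with the EZH2 shRNA. Its rise was 0.90 ± 0.15, and its falls in the knockdown were -1.91 ± 0.15 against set a and -3.50 ± 0.15 against set b. CRYAB read 6.32 and 5.89 with the shRNA, changes of -1.07 and -1.41, and PTGS2 read 6.82 and 6.39, changes of -0.80 and -1.62. CD180 (0.79, -0.75 and -1.04), IFFO2 (0.70, -1.01 and -1.83), TMEM156 (0.70, -1.31 and -2.00), LPXN (0.82, -0.72 and -0.74) and GPC4 (0.67, -1.03 and -1.24) followed, each given as the change with the cDNA and then with the shRNA against sets a and b. Of these 8, PTGS2, CD180 and IFFO2 exceeded all controls with the cDNA. LPXN and GPC4 stood below both scrambled sets, and GPC4 was below the floor in both groups compared (means 5.28 and 5.95). The rise of SLC6A14 was not called with any 1 of the 4 arrays left out.

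KIT, HEY2 and SCIN fell with the cDNA, as measured from the empty vector, and with the shRNA. With the cDNA, KIT was not below set a, and HEY2 was below neither scrambled set. KIT read 4.40 and 4.75 with the EZH2 shRNA, a change of -1.74 ± 0.13 against set a and -2.53 ± 0.13 against set b. HEY2 changed by -1.77 and -1.83 and SCIN by -1.54 and -1.60. KLK7 rose in both, by 0.75 and 1.41 in the knockdown, as did SPRR2A (1.21 and 4.12) and MGLL, a lipase (0.51 and 0.87). The cDNA call of MGLL was lost with any 1 of the 4 arrays left out, with changes of 0.548 to 0.628. The empty vector mean of SPRR2A, 5.11, was below the floor. SLC15A3, a peptide transporter, was also called higher in both (0.51 with the cDNA, 0.55 and 0.60 with the shRNA). Its empty vector mean was below the floor, its cDNA call was lost with any 1 of the 4 arrays left out, and with the cDNA it differed by -0.12 from set a and by -0.063 from set b. SPRR2A with the cDNA was below set a, by -0.83. The inflammatory genes depended on the control: of 27 tested members, 7 were called higher and 3 lower in the knockdown against set a, but 3 higher and 16 lower against set b. LIF changed by 0.39 (adjusted p = 0.102) against set a and by -2.32 against set b, and CXCL8 by -0.24 (adjusted p = 0.435) and -2.65.

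**Figure D5:**
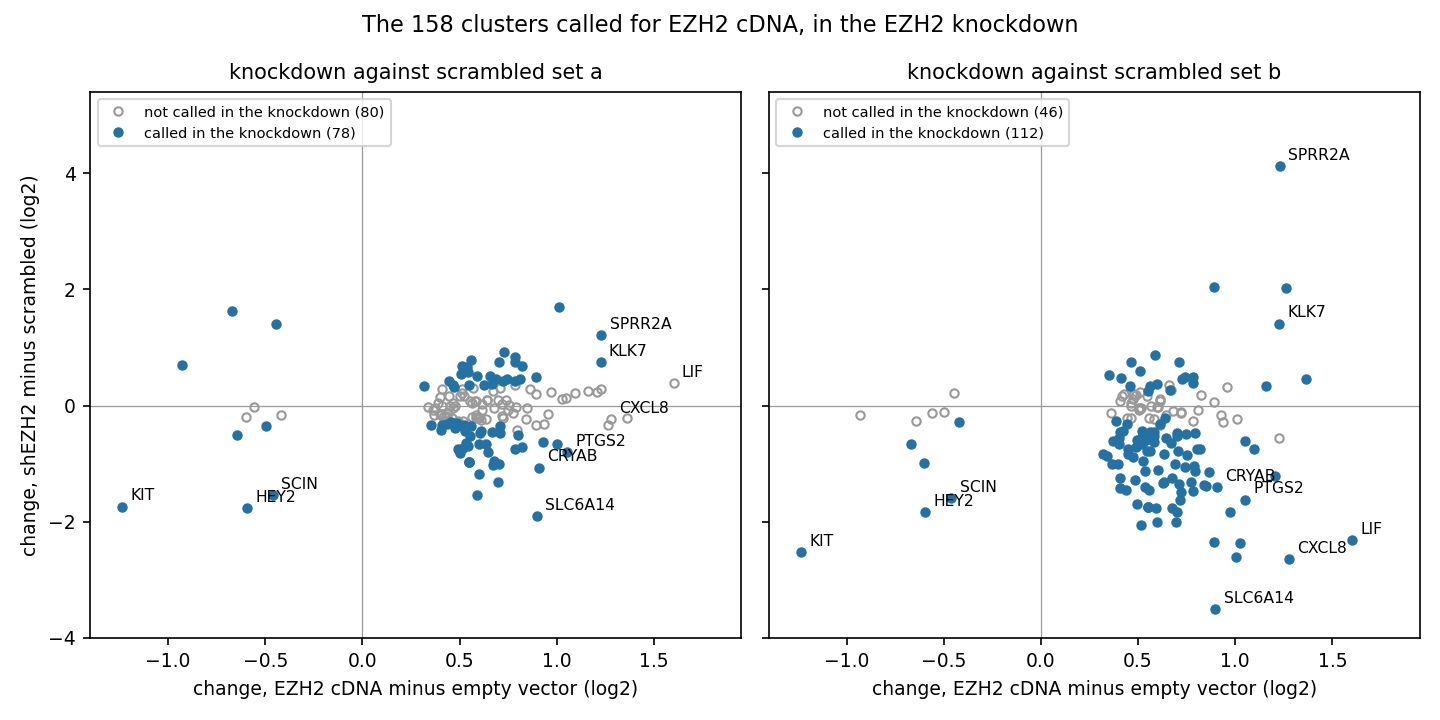
The 158 clusters called for the EZH2 cDNA: their change with the cDNA (horizontal, log2) against their change with the EZH2 shRNA (vertical, log2), measured from scrambled set a (left) and set b (right). Filled points, 78 on the left and 112 on the right, were called in the knockdown too. KIT, HEY2 and SCIN lie below 0 on both axes, and LIF and CXCL8 sit near 0 on the left and below -2 on the right.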

How the data were processed

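Per the submitters' processing notes, the authors made the deposited log2 signals with RMA in Affymetrix Expression Console (versions and genome build: not given in the sources used here). RMA corrects background, normalizes between arrays and summarises probes, and compresses changes of dim clusters. Clusters with at least 2 of 16 arrays at log2 6 were tested with limma 3.58.1 in R 4.3.3 (lmFit and eBayes): 8 group means over 16 arrays, 8 residual degrees of freedom, two-sided, Benjamini-Hochberg over 16175 clusters. Symbols came from the platform annotation; 19460 clusters had 1 symbol, 1754 several and 12083 none, and 19429 matched a RefSeq table by Entrez identifier. A gene with several clusters took the brightest. Tested on simulated data of this comparison (16175 clusters), the fit recovered 33 of 100 changes of 0.4 and 68 of 100 of 0.8, with 7 false calls. Genes were named by rule: a panel of 13, the 12 largest rises and falls whose brighter group reached the floor, up to 4 called members of each of 26 lists (or the largest change), up to 8 opposite and 6 same-direction genes in the knockdown, and the 5 largest relative to the control SD. Members and lists were chosen with earlier results of these data known. Alternatives varied the floor, arrays fitted, normalization, trend, replicate block and control group. Scan dates were not analysed here, and array number limits the precision.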

Additional observations from a re-analysis of the deposited data

How the results depend on the processing

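The floor, the other arrays fitted, the trend and the replicate block alter the error and the calls but not the change itself. They could therefore reverse no direction. The 158 called changes kept their direction under each normalization tried and without each of the 4 arrays, while other control groups reversed some. Calls numbered 113 with a floor of 5, 167 with a floor of 7, 218 with 1-symbol clusters only, 152 with the 12 HCC70 arrays, 126 after another quantile normalization and 150 with a trend. In the order of calls, calls outside the 6 controls, and calls opposite and alike in the knockdown, the counts were 88, 53, 23 and 20 with no floor, 88, 50, 27 and 17 with arrays centred on their medians, and 0, 0, 0 and 0 with the 4 arrays of each comparison alone. With the replicate number as a block they were 39, 22, 9 and 8; the labels do not say what the number marks, the deviations of same-numbered EZH2 cDNA and empty vector arrays correlated at r = 0.0022, and no pairing was assumed. Leaving out 1 array gave 14 to 97, 7 to 54, 3 to 25 and 3 to 21, and an EZH2 change of 0.255 to 0.332. Against the mean of the 3 control groups there were 646 calls, 443 of them outside the controls, and against set a 4227, 984 of them outside, with EZH2 called at 0.228. Set b gave 169 calls. Counting groups as units, 1 against 3, gave 0 calls and 0 outside in limma, with 111 higher and 34 lower at an unadjusted p under 0.05. Opposite calls numbered 85 with set b as the knockdown's control and 76 with the mean of both sets, where calls against each set on its own are not required. Clusters called against each of the 3 control groups on its own, a setting chosen after seeing the data, numbered 33. Reversed values were, against set a, CD68 -0.40, DPYSL3 0.50, FADS1 0.46, GPC4 -0.35, HEY2 0.094, HOXB6 -0.95, KIT 0.058, KLK10 -0.23, KRT14 -0.41, KRT5 -0.27, LPXN -0.41, SERPINA5 1.83, SLC15A3 -0.12, SLC30A1 0.50, SPRR2A -0.83, TAP2 -0.30. Against set b they were CCL2 -0.36, GPC4 -0.57, HEY2 0.037, LPXN -0.43, PLAT -0.38, SAA2 -0.89, SLC15A3 -0.063, SLC6A14 -0.58, TIMP3 -0.17, TMEM156 -0.31. Against the mean of 3, and with groups as units, they were GPC4 -0.084, LPXN -0.006, SERPINA5 0.23. The cause was not tested.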

Other observations

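A setting added after seeing the data asked which clusters were called in the same direction against each of the 3 HCC70 control groups on its own. It left 33 clusters, 31 of them named genes, all higher, and 0 lower; the EZH2 cDNA arrays are shared by the 3 comparisons. LIF, KLK6, KLK7, FST, PTGS2, DUSP1, EDN1, CXCL1, TNFAIP3, KRT15, IGFBP5 and PLAUR were among them. So were the genes of both ligands of the PD-1 receptor, CD274 and PDCD1LG2, chosen for mention after their values were seen. CD274 read 8.07 and 8.21 with the empty vector and 8.94 and 9.0 with the EZH2 cDNA, and the scrambled arrays ran from 7.25 to 7.86. PDCD1LG2 read 6.11 and 6.41 and then 6.86 and 7.12, against 5.53 to 6.18 on the scrambled arrays. With the EZH2 shRNA PDCD1LG2 was called higher as well, by 0.93 against set a and 0.46 against set b. CD274 with the shRNA was called higher against set a (0.68, adjusted p = 0.00648 by limma) and not against set b (0.18, adjusted p = 0.342). F3, tissue factor, the starter of blood clotting, read 9.69 and 9.85 and then 10.41 and 10.51, and KLF6, a zinc finger transcription factor, 9.82 and 9.81 and then 10.45 and 10.44. SOX4, a transcription factor of progenitor cells, read 8.87 and 8.69 and then 9.25 and 9.19.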
